A study of Mus musculus with 8 samples.

Results

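The mouse mitochondrial genome is annotated with 37 genes, of which 13 encode proteins, 2 encode ribosomal RNAs and 22 encode transfer RNAs. Of these, 10 chosen by name are described here: the complex I subunits mt-Nd1, mt-Nd2, mt-Nd4 and mt-Nd5, the complex III subunit mt-Cytb, the complex IV subunits mt-Co1, mt-Co2 and mt-Co3, the ATP synthase subunit mt-Atp6, and mt-Rnr2, the RNA of the large mitochondrial ribosomal subunit. All 10 were found by symbol among the 55414 genes of the count table. Of the 10, 7 passed the filter on low counts, as did 15150 genes in all, and the other 3 held 0 to 2 counts in every library.

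The libraries came from cultured mouse cardiac fibroblasts, the matrix-producing cells of the heart, from strain C57BL/6J. The control was an adenovirus carrying GFP (4 libraries), and it was compared with an adenovirus carrying Has2 (4 libraries), the enzyme that makes hyaluronan. In both groups the cells were at passage 2, had 24 h without serum and 5 h with the virus, and were then kept for 48 h with bFGF and TGFb at 20 ng/mL. The genotype label is Wild Type in all 8, whereas the treatment text names Has2 fl/fl mice; a Cre virus named there was not analysed here. Replicates 1 and 2 of each group were female and replicates 3 and 4 male. A cell preparation identifier in the library names links the GFP and the Has2 library of each number, and the female and male preparations carry identifiers of different series, so sex cannot be told apart from the series of preparations. Whether each preparation came from its own animals is not stated, and p-values then measure only the spread between these samples.

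Total counts were 46981231 to 55795187 per library. Has2 itself had 1192, 336, 903 and 1074 counts in GFP replicates 1 to 4 and 530540, 409630, 172732 and 238746 with the Has2 virus, in which viral and endogenous transcripts are counted together. Most defining cardiomyocyte transcripts were low: Pln and Myl7 had no count, and 9 of 10 such markers were under 1 CPM in every library. CPM are counts per 1000000 counts after TMM scaling of the library totals. The exception was Tnnt2, with 180 to 471 counts per library, and Tnni3, under 1 CPM, had 19 to 48 counts. The 10 cardiomyocyte markers summed to 4.92 to 9.28 CPM with GFP and 4.59 to 8.95 CPM with Has2. The 10 fibroblast markers summed to 20400 to 32600 CPM and 19700 to 34300 CPM, and 8 macrophage markers to 879 to 2080 CPM and 824 to 2250 CPM. GFP replicate 1 stood apart: 10 transcripts of secreted liver proteins, including albumin, summed to 884 CPM there and to 2.75 to 4.71 CPM in the other 7 libraries. For the members, the virus test and the difference between the sexes are therefore given also without it or without the pair of replicate 1. The nuclear lists are not given without it, nor are the percentages of the mitochondrial counts for members other than mt-Rnr2 and mt-Nd5.

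Mitochondrial DNA is transcribed from both strands as long precursors that are processed into separate RNAs, mostly by removal of the transfer RNAs that lie between the other genes. Most of the mRNAs and the ribosomal RNAs then receive short poly(A) tails, and for several mRNAs the tail completes the stop codon. The encoded proteins are core subunits of the respiratory chain and ATP synthase, whose remaining subunits are encoded in the nucleus. In bulk RNA, fewer cells of a type and less RNA per cell cannot be told apart, and the same holds for the number of mitochondria per cell.

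The 3' ends are shown because the library kit selects poly(A) RNA. The last 24 bases of 4 members are printed 5' to 3' from GENCODE M21 transcripts (GRCm38), with the stop codon, or the part of it that is encoded, in capitals.
mt-Nd5: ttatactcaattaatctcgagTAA
mt-Co1: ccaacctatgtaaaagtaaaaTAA
mt-Nd4: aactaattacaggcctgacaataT
mt-Cytb: acaaaatactaaaattatatccaT
The mt-Nd4 and mt-Cytb genes end with a single T, and so does mt-Co3, whereas the mt-Nd5 and mt-Co1 genes encode a complete TAA.

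The 3 members with next to no counts were those with near-complete copies in the nuclear genome. Mt-Co2 and mt-Co3 had 0 counts in all 8 libraries, and mt-Atp6 had 2 counts in GFP replicate 1 and 0 in the others. A count of 0 allows a share of up to 5.38e-06% to 6.39e-06% of the counts of a library (3 counts of its total). Of the windows of 100 bases in these genes, 99.5% (mt-Co2), 99.9% (mt-Co3) and 99.5% (mt-Atp6) occurred letter for letter in transcripts of nuclear genes. Each of the 3 had a copy on chromosome 1, annotated as an unprocessed pseudogene, with no difference over the aligned bases: Gm28661 matched mt-Co2 over 681 bases, Gm28437 matched mt-Co3 over 783 and Gm10925 matched mt-Atp6 over 678. These 3 copies themselves held at most 2 counts in any library. Mt-Co2 also shared 15% of its windows with Gm13341, an unprocessed pseudogene on chromosome 2 with 4 to 37 counts per library. How reads that match several places were treated is not given in the sources used here, and its part in these zeros was not tested. The zeros are therefore values of this table and no measure of whether the cells held the mRNAs.

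The measured genes shared less or nothing with nuclear transcripts. For mt-Nd4 the shared windows came to 60.8%, because Gm28439 matched its first 876 bases without a difference and left 502 bases outside the copy. For mt-Co1 they came to 30.8%, and 1053 bases lay outside Gm29216, which matched bases 1054 to 1545 with 6 differences. Only 3.2% of the windows of mt-Nd2 were shared, and none of those of mt-Rnr2, mt-Nd1, mt-Nd5 and mt-Cytb. Windows of 30 bases found more in other nuclear transcripts: 14.1% of those of mt-Nd2 were in Gm13339, 13.5% and 7.9% of those of mt-Nd5 in Gm4076 and Gm11407, 7.4% of those of mt-Cytb in Gm11410 and 2.8% of those of mt-Rnr2 in Gm20594. For mt-Co1, 46.6% of the windows of 30 bases and 5.5% of those of 100 were in Gm13340, a copy of 1545 bases on chromosome 2 with 4 to 18 counts per library. The first 36 bases of 2 copies are set beside the gene they match, with bases that differ in capitals. Over these bases the letters do not separate Gm28661 from mt-Co2, whereas they do separate Gm29216 from mt-Co1.
mt-Co2: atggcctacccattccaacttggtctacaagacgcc
Gm28661: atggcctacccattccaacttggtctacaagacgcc
mt-Co1: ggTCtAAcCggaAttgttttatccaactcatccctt
Gm29216: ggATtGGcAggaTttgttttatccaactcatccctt
Counted from 1 at the 5' end of mt-Co1, the differences were T1056A, C1057T, A1059G, A1060G, C1062A and A1066T, all within the first bases of the copy. The rest of the 492 aligned bases of Gm29216 was the same as mt-Co1 letter for letter. In mt-Nd4 the boundary lies after base 876, with the last 40 bases shared with the copy in lower case and the first 20 outside it in capitals.
mt-Nd4: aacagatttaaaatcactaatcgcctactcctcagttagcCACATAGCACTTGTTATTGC
The 3 other protein genes at 0 counts were mt-Nd3, mt-Nd4l and mt-Atp8. Mt-Nd3 and mt-Nd4l shared 97.6% and 98.5% of their windows, whereas mt-Atp8 shared no window of 100 bases with an annotated nuclear transcript (8% of its windows of 30 bases were in Gm10925). The copy of mt-Nd3, Gm28438, held 10 to 58 counts per library, and that of mt-Nd4l, Gm10222, held 0 to 4. The transcripts searched are of an older build than the counts, and genome sequence between annotated copies was not analysed here.

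**Figure D1:**
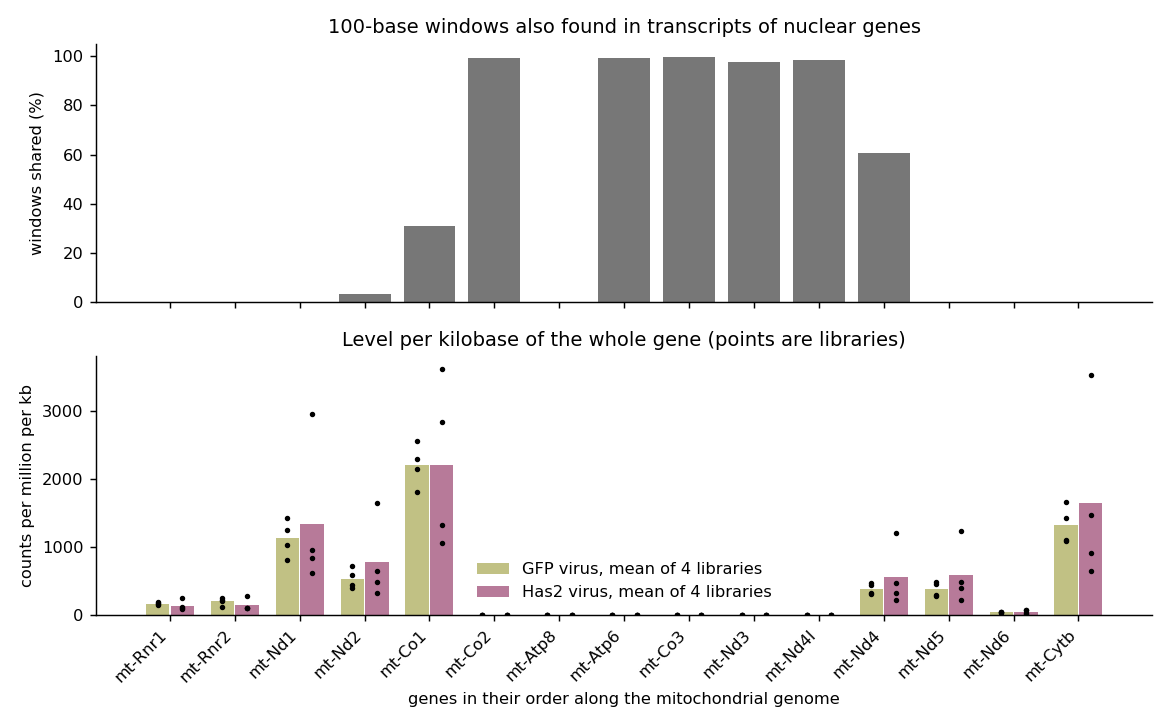
The upper bars give the percent of 100-base windows of each mitochondrial protein or ribosomal RNA gene that also occur in transcripts of nuclear genes; the lower bars give the mean level of 4 libraries per group in CPM per kilobase, with points for single libraries. Genes with 97.6% or more of their windows shared have at most 2 counts, and mt-Atp8 has 0 counts with no window shared.

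Among the members that were counted, levels per kilobase ran from mt-Co1 down to mt-Rnr2. In the GFP libraries mt-Co1 had 2206 ± 316 CPM per kilobase (SD, n = 4) over its whole length, and 3236 ± 463 when only the 1053 bases outside the copy are counted as its length. Mt-Cytb had 1320 ± 278 and mt-Nd1 1125 ± 270 CPM per kilobase (SD, n = 4), a difference smaller than the SD of either, although mt-Cytb was above mt-Nd1 in 8 of 8 libraries. Mt-Nd2 followed with 532 ± 146 CPM per kilobase. The next neighbours, mt-Nd4 with 380 ± 84.5 and mt-Nd5 with 372 ± 105 CPM per kilobase, did not differ beyond their spread, and their order turned between libraries. Over the 502 bases outside its copy mt-Nd4 would have 1044 ± 232 CPM per kilobase, above mt-Nd2. Mt-Rnr2 was lowest with 194 ± 53.2 CPM per kilobase, a level of the molecules that the mRNA kit recovered. The genes lie on the same precursor apart from mt-Nd6, the only protein gene of the other strand. Mt-Nd6 had 34.3 ± 4.39 CPM per kilobase, likewise a level of the recovered molecules, and its recovery by the kit was not tested.

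In each pair of replicates with 1 number the members moved largely together, and the direction differed between the female and the male pairs. Shares below are percent of all counts of a library. Mt-Nd5, a core proton-pumping subunit of complex I, made up 0.0877%, 0.0477%, 0.0526% and 0.0865% of the counts in GFP replicates 1 to 4 and 0.225%, 0.0853%, 0.0391% and 0.0732% with the Has2 virus. The share was thus 2.57 and 1.79 times the GFP value in the female pairs and 0.743 and 0.846 times in the male pairs. Mt-Cytb, the haem-carrying subunit of complex III, made up 0.192%, 0.117%, 0.128% and 0.172% with GFP and 0.404%, 0.161%, 0.0724% and 0.108% with Has2. Its ratios were 2.1, 1.38, 0.566 and 0.627 in replicates 1 to 4. Mt-Co1, the catalytic subunit of complex IV, made up 0.4%, 0.311%, 0.284% and 0.375% with GFP and 0.559%, 0.422%, 0.162% and 0.212% with Has2. For this gene both female pairs had ratios close to each other, 1.4 and 1.36, and so had both male pairs, 0.568 and 0.565. In each of these 3 genes Has2 replicate 1 was the highest and Has2 replicate 3 the lowest of the 8 libraries, and the groups overlapped.

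The other complex I members behaved alike. Mt-Nd4 had 30839, 19984, 20445 and 29994 counts with GFP and 91926, 31276, 15983 and 21518 with Has2, with share ratios of 2.51, 1.51, 0.698 and 0.721. Mt-Nd2 had 34936, 20728, 20010 and 30845 counts with GFP and 95236, 32647, 18053 and 24556 with Has2, with share ratios of 2.3, 1.51, 0.805 and 0.8. Mt-Nd1 had 64485, 35030, 48419 and 60435 counts with GFP and 157988, 44483, 31759 and 39113 with Has2, with share ratios of 2.06, 1.22, 0.585 and 0.651. Has2 replicate 1 was far above all other libraries for each of the 3. Mt-Rnr2 departed from the protein genes: it had 18195, 8612, 16924 and 15763 counts with GFP and 23661, 7699, 7983 and 7937 with Has2, with share ratios of 1.1, 0.859, 0.421 and 0.506. It was the member with the lowest ratio in each of the 4 pairs. The exact 95% binomial intervals of these shares, which cover counting error only, are far narrower than the differences between libraries; for mt-Rnr2 in GFP replicate 2, among the fewest counts, the interval was 0.0173% to 0.018%.

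**Figure D2:**
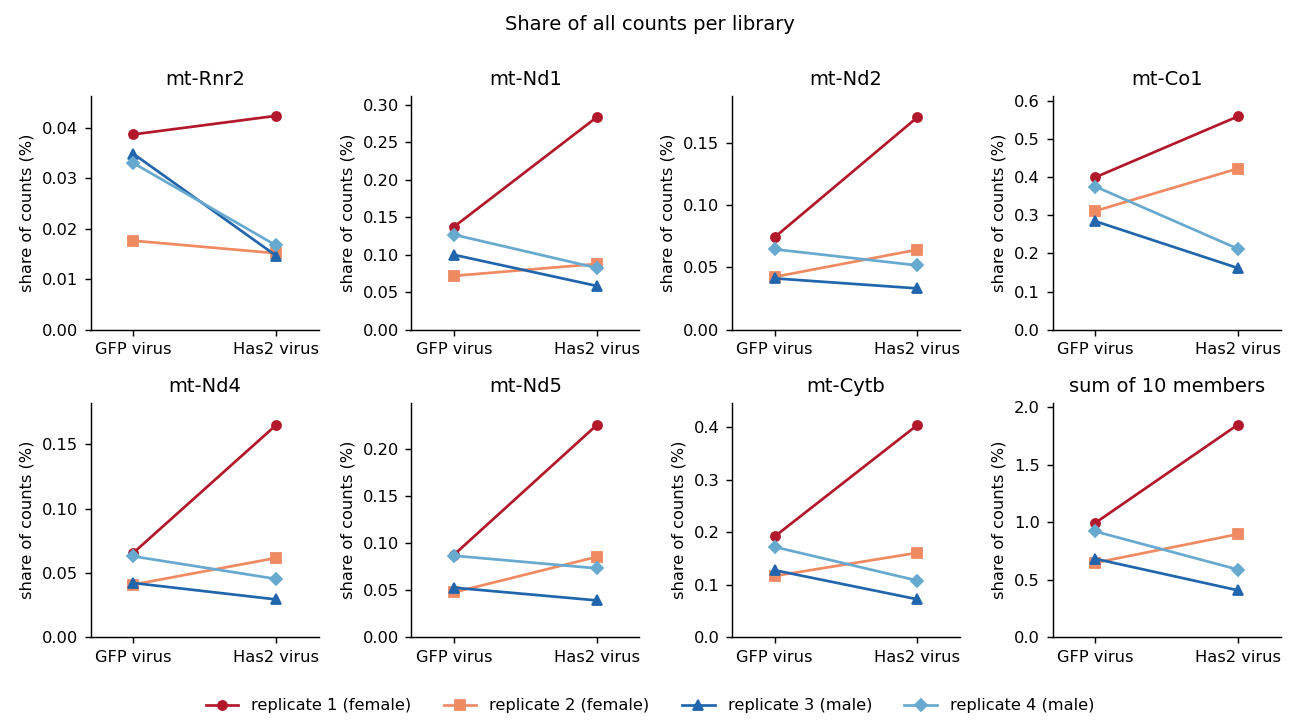
Each panel plots the percent of all counts of a library held by 1 member, or by the sum of the 10, with lines joining the GFP and the Has2 library of a replicate number. Lines of replicates 1 and 2 (female) slope up and those of replicates 3 and 4 (male) slope down in 6 of the 7 measured genes; for mt-Rnr2 the line of replicate 2 slopes down as well.

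Over the 7 measured members the median log2 ratio of shares was 1.07 in replicate 1, 0.46 in replicate 2, -0.77 in replicate 3 and -0.62 in replicate 4, against medians of 0.00 to 0.04 in size over all genes tested. In all, 6 of the 7 were higher in both female pairs and lower in both male pairs, a pattern that 15.9% of all genes tested showed. In 7 of 7 both female ratios exceeded both male ratios, against 31.1% of all genes tested. The members are encoded on 1 molecule and transcribed together, so they are not independent. Their levels correlated across the 8 libraries with a Pearson r of 0.57 to 0.99 and a median of 0.92 over the 21 pairs of members, as a description over libraries that share their depth and preparation; the lowest values were those of mt-Rnr2.

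Has2 virus against GFP virus over all 8 libraries, the comparison the design was made for, called none of the members. Mt-Nd5 had 679 ± 192 CPM with GFP and 1062 ± 822 CPM with Has2 (SD, n = 4), a log2 fold change of 0.65 (SE 0.47), and edgeR's quasi-likelihood test with Benjamini-Hochberg adjustment gave an adjusted p of 1. Mt-Nd2 had 552 ± 152 and 804 ± 620 CPM, a log2 fold change of 0.54 (SE 0.45), and mt-Nd4 524 ± 116 and 757 ± 613 CPM, a log2 fold change of 0.53 (SE 0.47). Mt-Cytb had 1510 ± 318 and 1877 ± 1504 CPM with a log2 fold change of 0.31 (SE 0.46), and mt-Nd1 1076 ± 259 and 1284 ± 1045 CPM with 0.25 (SE 0.45). Mt-Co1 had 3408 ± 488 and 3422 ± 1899 CPM, a log2 fold change of 0.01 (SE 0.36), and mt-Rnr2 307 ± 84.2 and 223 ± 135 CPM, a log2 fold change of -0.46 (SE 0.37). In every one of the 7 the difference of the means was smaller than the SD of the Has2 libraries, which spread 2.87 to 5.71 times from lowest to highest against 1.42 to 2.04 times for the GFP libraries.

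The count was 0 of 7 called, against 0.0066% of all genes tested, a single gene, which was Has2. At an unadjusted p under 0.05 edgeR had 388 genes and 0 of the 7 members, whose smallest unadjusted p was 0.198 (adjusted p = 1) for mt-Nd5. DESeq2 called 7 genes and limma-voom 1, in both cases with 0 members. With the replicate number as a block the log2 fold changes were 0.39 for mt-Nd5, 0.30 for mt-Nd2, 0.24 for mt-Nd4, 0.02 for mt-Cytb, -0.01 for mt-Nd1, -0.17 for mt-Co1 and -0.57 for mt-Rnr2, and 0 of 7 were called. Without the block 6 of the 7 log2 fold changes were positive, and none of these signs held when Has2 replicate 1 was left out. All 7 were then negative, from -0.96 to -0.02 with a median of -0.33. Without GFP replicate 1, the library with liver transcripts, they ran from -0.31 to 0.81 with a median of 0.47. Mt-Rnr2 stayed negative with each library or pair left out, and mt-Co1, at 0.01 in the main fit, turned sign in 6 of these 12 fits. None of the 7 had groups of 4 that did not overlap, against 2.38% of all genes tested.

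The log2 fold change for the virus was lower in male than in female pairs for all 7 measured members when the replicate number was a block in the model. In that fit the female pairs gave 0.45 and the male pairs -0.78 for mt-Co1, a difference of -1.23 (SE 0.14, edgeR adjusted p = 0.00011). For mt-Nd5 the values were 1.09 and -0.30, a difference of -1.39 (SE 0.18, edgeR adjusted p = 0.000313), and for mt-Cytb 0.76 and -0.71, a difference of -1.47 (SE 0.20, edgeR adjusted p = 0.000363). Mt-Nd4 differed by -1.41 (SE 0.21), mt-Nd1 by -1.31 (SE 0.22), mt-Nd2 by -1.17 (SE 0.19) and mt-Rnr2 by -1.02 (SE 0.16), with edgeR adjusted p from 0.000754 to 0.00141. Mt-Rnr2 differed in form from the others, with -0.05 in female and -1.08 in male pairs. The 7 of 7 members called lower in male pairs stand beside 18% of all genes tested called in that direction and 29.5% called either way.

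That count was not the same in other fits. Without the block edgeR called 0 of 15150 genes, with 2014 at an unadjusted p under 0.05; limma-voom called 0 and DESeq2 681, of which 1 was a member, mt-Co1 (DESeq2 called 4.35% of all genes lower in male pairs). DESeq2 with the block called 7 of 7 members lower in male pairs, against 15.3% of all genes tested. The members' differences without the block were similar in size, -1.56 to -1.10, with edgeR adjusted p from 0.166 to 0.511. The GC content of the measured members was 35.4% to 39.9%, against a median of 49.7% over the genes tested, of which 5.65% lay at or below 39.9%. Across genes the change within a pair followed GC content in the male pairs, with Spearman's rho of 0.66 and 0.64, and weakly and in the opposite sense in the female pairs, with -0.22 and -0.17. When the trend over GC content and length was taken out of the blocked fit, 2 of 7 members were called lower in male pairs, mt-Cytb at -0.80 (edgeR adjusted p = 0.0162) and mt-Co1 at -0.59 (edgeR adjusted p = 0.0201), against 4.69% of all genes tested in that direction and 10.6% either way. The other 5 then had differences of -0.56 for mt-Nd1, -0.51 for mt-Nd5, -0.47 for mt-Nd4, -0.27 for mt-Nd2 and -0.05 for mt-Rnr2. Without the pair of replicate 1, which holds the library with liver transcripts, the blocked fit called 7 of 7 lower in male pairs with a median difference of -0.99, beside 18.3% of all genes tested; it had 3 pairs, of which 1 was female. Without the pair of replicate 2, 3 or 4 it also called 7 of 7, beside 18.8%, 12.4% and 12.2% of all genes tested. In each fit without a pair, 1 sex had a single pair, which is assumed to vary like the others, and the spread came from the remaining pairs and from edgeR's prior over genes.

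Removing the trend also moved the male pairs across 0. The members' median log2 ratios became 1.12, 0.63, 0.32 and 0.13 in replicates 1 to 4. Mt-Nd1, mt-Nd2, mt-Nd4 and mt-Nd5 were then higher with the Has2 virus in all 4 pairs, 4 of 7 members against 11.9% of all genes tested, whereas as counted no member was (9.16% of all genes tested). No member was lower in all 4 pairs, as counted (7.96% of all genes tested) or with the trend removed (8.27%). The pattern of both female pairs higher and both male pairs lower was then found in 0 of 7, against 10.3% of all genes tested. Both female ratios still exceeded both male ratios in 5 of 7, against 26.1% of all genes tested. With the trend removed the test over all 8 libraries called 0 of 7 (0.0066% of all genes tested), and 0 of 7 when the block was added (0.0132%). Without the block it gave log2 fold changes of 0.94 for mt-Nd5, 0.89 for mt-Nd2, 0.84 for mt-Nd4, 0.60 for mt-Cytb, 0.59 for mt-Nd1, 0.30 for mt-Co1 and -0.03 for mt-Rnr2.

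**Figure D3:**
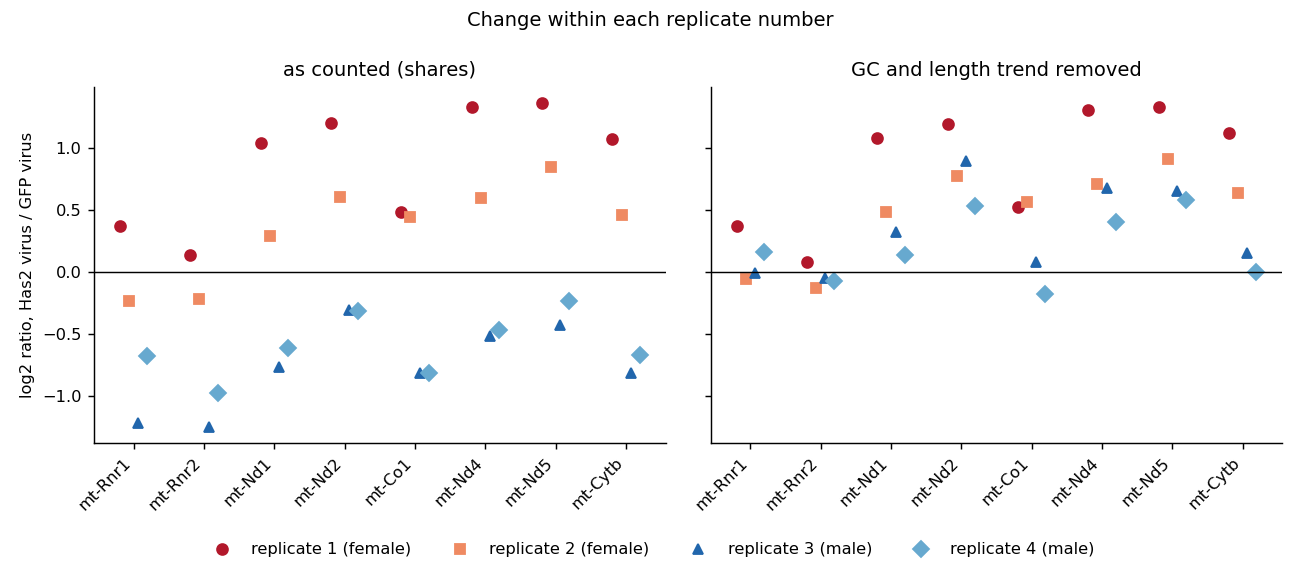
Points give the log2 ratio of Has2 to GFP virus within each replicate number for 8 measured mitochondrial genes, from shares as counted (left) and with the trend over GC content and length removed (right). On the left the male points lie below 0 for each of these genes; on the right most of them lie near or above 0, and mt-Rnr2 lies near 0 in all 4 pairs.

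The make-up of the mitochondrial counts differed between the viruses in the same direction in every pair for 5 of the 7 measured members, whichever way the total went. These values are percent of all counts of mitochondrially encoded genes in a library and do not depend on how libraries are scaled. Mt-Nd5 had 8.63%, 7.2%, 7.5% and 9.21% in GFP replicates 1 to 4 and 12%, 9.39%, 9.38% and 12.1% with Has2. Mt-Nd4 had 6.47%, 6.18%, 6% and 6.69% with GFP and 8.78%, 6.78%, 7.05% and 7.51% with Has2. Both were higher in 4 of 4 pairs, and their groups did not overlap, by a narrow margin for mt-Nd4 (6.69% against 6.78%). Levels of single genes did not overlap in 2.38% of all genes tested, which is another scale and no background for these percentages. The summed mitochondrial count spread 4.47 times between libraries, which would carry into any nuclear gene divided by it but not into its own parts, so no background over nuclear genes is given for these percentages. With the protein genes alone as the denominator the groups of both overlapped. Mt-Nd2 was also higher in 4 of 4 pairs, with 7.32%, 6.41%, 5.88% and 6.88% against 9.09%, 7.08%, 7.96% and 8.57%, and its groups overlapped.

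In the opposite direction, mt-Co1 was below its GFP share in 4 of 4 pairs, with 39.4%, 47%, 40.5% and 39.9% against 29.8%, 46.5%, 38.7% and 35.2%. Mt-Rnr2 was as well, with 3.81%, 2.66%, 4.97% and 3.52% against 2.26%, 1.67%, 3.52% and 2.77%. The group means of mt-Rnr2 were 3.74% ± 0.95 and 2.56% ± 0.79 (SD, n = 4), and the groups overlapped for both genes. Thus 5 of 7 members kept 1 direction in all 4 pairs; mt-Nd1 and mt-Cytb were higher in 2 of 4. No test was made on these shares, since parts of a sum move against each other. As ratios, mt-Nd5 per 100 counts of mt-Co1 was 21.9, 15.3, 18.5 and 23 with GFP and 40.3, 20.2, 24.2 and 34.5 with Has2, which is 1.84, 1.32, 1.31 and 1.5 times. Mt-Rnr2 per 100 counts of mitochondrial protein genes was 4.04, 2.79, 5.36 and 3.71 with GFP and 2.34, 1.72, 3.72 and 2.9 with Has2, which is 0.579, 0.616, 0.693 and 0.782 times.

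**Figure D4:**
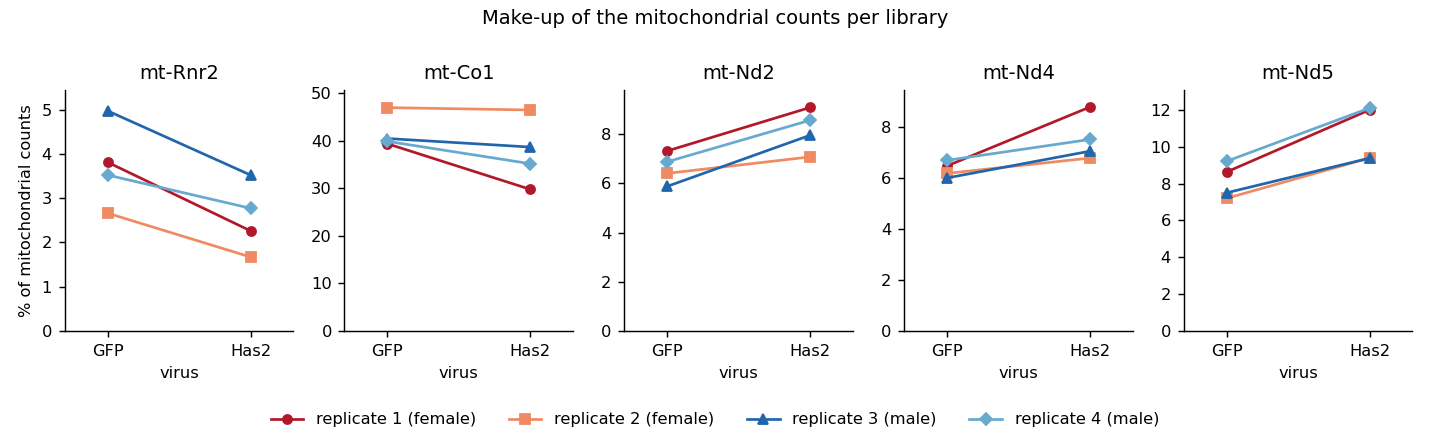
Each panel plots 1 gene as percent of all mitochondrial counts in a library, with lines joining the GFP and the Has2 library of a replicate number. Lines for mt-Nd2, mt-Nd4 and mt-Nd5 slope up in all 4 pairs and those for mt-Rnr2 and mt-Co1 slope down.

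The remaining mitochondrial genes were followed for context. Mt-Rnr1, the RNA of the small ribosomal subunit, was near its neighbour mt-Rnr2 with share ratios of 1.3, 0.848, 0.43 and 0.623 and a difference between male and female pairs of -0.97 (SE 0.22, edgeR adjusted p = 0.00757 in the blocked fit). That call of mt-Rnr1 was lost without the block (edgeR adjusted p = 0.409), in DESeq2 with the block (adjusted p = 0.0835), in the blocked edgeR fit without replicate 3 (adjusted p = 0.0548) and in the blocked fit after removal of the GC and length trend (-0.09, edgeR adjusted p = 0.771). Mt-Nd6, encoded on the other strand, had 776, 700, 969 and 1004 counts with GFP and 2076, 419, 498 and 1696 with Has2, with share ratios of 2.25, 0.575, 0.459 and 1.7 that did not divide by sex. The annotations of mt-Nd5 and mt-Nd6 overlap by 14 bases on opposite strands, and the strand setting of the counting is not given. Of the 22 transfer RNA genes 12 had no count, and together the 22 held 48 to 176 counts per library.

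Nuclear genes that serve mitochondrial gene expression were counted by list in the test over all 8 libraries. That test called 1 of 15150 genes (0.0066%), which was Has2. None of the listed genes was called: 0 of 17 for transcription and replication of mitochondrial DNA, 0 of 24 for RNA processing and stability, 0 of 79 for the mitochondrial ribosome, 0 of 12 for translation factors, 0 of 12 for regulators of biogenesis and 0 of 84 for nuclear subunits of oxidative phosphorylation. Their median log2 fold changes were -0.11, -0.08, 0.00, 0.02, -0.02 and -0.04, against -0.01 over all genes tested. Tfam packages mitochondrial DNA and takes part in its transcription. It had 31.4 ± 2.75 CPM with GFP and 23.4 ± 3.61 with Has2 (SD, n = 4). Its log2 fold change was -0.42 (SE 0.14, edgeR adjusted p = 1), and it was lower in 4 of 4 pairs. Slirp, which with Lrpprc stabilises mitochondrial mRNAs, had 35.6 ± 5.66 and 23.1 ± 2.87 CPM, a log2 fold change of -0.63 (SE 0.15, edgeR adjusted p = 1), also lower in 4 of 4 pairs. For Lrpprc itself the value was -0.26 (SE 0.14), and for Pnpt1, a subunit of the RNA-degrading complex of mitochondria, -0.54 (SE 0.26). Pnpt1 had -0.05 in female and -1.13 in male pairs in the blocked fit. With the GC and length trend removed and no block, Tfam had -0.29, Slirp -0.37, Lrpprc -0.24 and Pnpt1 -0.24. Mrps18c (-0.57, SE 0.16) and Cox7b (-0.52, SE 0.15) of other lists were also lower in 4 of 4 pairs, and Pprc1 (0.12, SE 0.12) was higher. Of all genes tested 7.96% were lower and 9.16% higher in all 4 pairs.

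In the blocked fit the nuclear subunits of oxidative phosphorylation and the mitochondrial ribosome went the other way from the members as counted. Their median log2 fold changes were -0.30 in female and 0.22 in male pairs for the 84 nuclear subunits, and -0.21 and 0.20 for the 79 ribosomal proteins, where the 7 members had 0.76 and -0.66. Of the nuclear subunits 52 were called higher and 1 lower in male pairs, and of the ribosomal proteins 41 and 3; over all genes tested 1748 were called higher and 2722 lower. After removal of the GC and length trend these counts were 20 and 1, and 21 and 0, beside 899 higher and 711 lower over all 15150 genes tested. The medians in female and male pairs were then -0.13 and 0.13 for the nuclear subunits, -0.11 and 0.12 for the ribosomal proteins and 0.88 and 0.22 for the members, so that in male pairs all 3 had the same sign. For transcription and replication of mitochondrial DNA 6 of 17 were called lower in male pairs and 0 higher, among them Tfam (-0.20 in female and -0.66 in male pairs, edgeR adjusted p = 0.0233). With the trend removed 1 of the 17 was called lower and 1 higher, and Tfam had an edgeR adjusted p of 0.738.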

How the data were processed

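A stranded mRNA kit was used for the 8 libraries, per the labels' protocols. The values are whole counts for each Ensembl ID, as deposited; the submitters' processing notes name FastQC 0.10.1, HTSeq 0.10.0 and mm39. Not given in the sources used here are the aligner, the annotation release, the strand setting and the treatment of multiply matching reads. Of 55414 IDs, 52081 matched a symbol in GENCODE M21 (GRCm38), which also gave lengths, GC content (for 99.8% of genes tested) and sequences; 0 columns were left unmapped. The mouse mitochondrial genes were taken by symbol.

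Counts as deposited were tested with edgeR 4.0.16 (R 4.3.3; quasi-likelihood, TMM scaling, filterByExpr; called under an adjusted p of 0.05 over all 15150 genes tested). CPM are scaled by TMM. Alternatives were the replicate block, other scalings and filters, DESeq2 1.42.0, voom in limma 3.58.1, a spline of GC content and length (5 degrees of freedom) removed per library, sex as a covariate, and each library left out. The blocked fit without each pair was added after seeing the data. Same-numbered libraries deviated together from their group means (correlations 0.58, 0.62, 0.53 and 0.44) and carry 1 preparation identifier, so the numbers pair the samples. The fitting script was tested on simulated data with planted changes.

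The members and lists were chosen with earlier results of these data known. Named were all members, the other mitochondrial genes, Has2, up to 4 genes per list with the smallest p, and the 5 nuclear genes of at least 5 CPM whose levels correlated best with the members' mean. Of the 5 genes most opposite to that mean, Mogs and Dhps were named.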

Additional observations from a re-analysis of the deposited data

Results flagged for a closer look

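Has2 replicate 1 stood far above the other Has2 libraries in 2 levels: the gap to the next library was 0.952 of the whole range for mt-Rnr2 and 0.856 for mt-Nd1. It was also apart in the share that mt-Cytb took of the mitochondrial counts (0.868 of the range). In the GFP group, replicate 2 was apart in the share of mt-Co1 (0.848 of the range). Each of these 4 gaps is above Dixon's 95% critical value for 4 samples; 38 groups were screened, and chance passes about 1 in 20.

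The virus effect differed between male and female pairs in the fit with the replicate block. The log2 difference, male minus female, was -1.47 for mt-Cytb, -1.41 for mt-Nd4, -1.39 for mt-Nd5, -1.31 for mt-Nd1, -1.23 for mt-Co1, -1.17 for mt-Nd2, -1.02 for mt-Rnr2 and -0.97 for mt-Rnr1. With the GC and length trend removed as well, the calls of mt-Nd4, mt-Nd5, mt-Nd1, mt-Nd2, mt-Rnr2 and mt-Rnr1 were lost, at -0.47, -0.51, -0.56, -0.27, -0.05 and -0.09 (edgeR adjusted p = 0.148, 0.0569, 0.0894, 0.357, 0.833 and 0.771). Sex cannot be told apart from the series of preparations, and the male pairs are those whose changes followed GC content.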

How the results depend on the processing

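None of the 7 measured members was called for the virus under the alternatives run. Genes called for the virus were 7 with DESeq2, 61 with DESeq2 and the replicate block, 2 with the block and the GC and length trend removed, and 0 with the block without replicate 1. Genes called for the difference between the sexes were 4470 with the replicate block, 681 with DESeq2, 3577 with DESeq2 and the block, 1610 with the block and the trend removed, 0 to 7 with a library or pair left out of the fit without the block, and 4972, 4840, 2658 and 2353 with the block without replicates 1 to 4. These blocked fits without a pair were chosen after seeing the data. The median difference over the members was -0.56 with the trend removed, -0.51 with the trend removed and the block, -0.99 with the block without replicate 1, and -1.98 to -0.66 with a library or pair left out.

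Several small log2 fold changes for the virus turned sign, and the cause was not tested. With the replicate block, which takes up the pairing, they were -0.0084 for mt-Nd1 and -0.17 for mt-Co1. With limma-voom they were -0.0031 and -0.17. Mt-Co1 had -0.017 with library totals, -0.15 with DESeq2 and the block and -0.16 with sex as a covariate. With the block without replicate 1 they were -0.33 for mt-Nd1, -0.095 for mt-Nd4, -0.31 for mt-Cytb, -0.36 for mt-Co1 and -0.35 for mt-Nd6. Without replicate 2 they were -0.10 for mt-Nd1, -0.13 for mt-Cytb and -0.36 for mt-Co1, and without replicate 4 -0.23 for mt-Nd6. With the trend removed mt-Rnr1 had 0.13, and 0.12 with the block. With a library or pair left out the ranges were -0.48 to 0.51 for mt-Nd1, -0.13 to 0.80 for mt-Nd2, -0.18 to 0.81 for mt-Nd4, -0.022 to 0.93 for mt-Nd5, -0.38 to 0.58 for mt-Cytb, -0.33 to 0.24 for mt-Co1 and -0.031 to 0.64 for mt-Nd6. The sex difference of mt-Nd6 turned to 0.64 with the trend removed, 0.62 with the block added, 0.77 and 0.57 with the block without replicates 1 and 3, and ranged from -1.62 to 1.01 with a library or pair left out.

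The 5 alternatives of scaling and filtering left the members uncalled. The make-up percentages of mt-Rnr2 and mt-Nd5 kept their direction with each library left out, which was not run for other members. For mt-Nd5 that outcome was fixed in advance, because its groups did not overlap. For the summed share, leaving out a library removed its pair and left the other pair of that sex. The log2 ratio was then 0.47 or 0.89 for female and -0.64 or -0.74 for male pairs, which only repeats the single pairs. With 2 pairs per sex, the blocked test of the difference has few residual degrees of freedom. The protein genes at 0 to 2 counts were too low for the fit, and the reason for these counts was not tested. Of the 22 transfer RNA genes, 2 were tested.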

Other observations

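Nuclear genes were ranked by how closely their level over the 8 libraries followed the mean of the 7 measured members, among 10295 genes of at least 5 CPM. The 5 closest were Crebbp, a histone acetyltransferase (Pearson r = 0.993), Gpalpp1 (0.979), Tab2, an adaptor of TAK1 signalling (0.979), Rab6a, a Golgi GTPase (0.978), and Ogfrl1 (0.976). Correlations of similar size were found in the opposite direction, where the 5 most extreme genes ran from Mogs (-0.994) to Dhps (-0.99). These are descriptions over 8 libraries that share preparation and depth, chosen as the extremes of many genes. Crebbp had 34.6, 27.2, 28.8 and 31.7 CPM with GFP and 44.6, 31.6, 23.6 and 28.6 CPM with Has2, so its range was far narrower than that of the members.

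In the fit with both the trend over GC content and length removed and the replicate block, 2 genes were called for the virus, Has2 and the guanylate-binding protein gene Gbp3 (log2 fold change -0.99, edgeR adjusted p = 0.0456). The transfer RNA gene with the most counts was at 120 in its highest library.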
